A study of Homo sapiens with 18 samples.

Results

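The genes described here are 178 human ZNF zinc finger genes with a high transcript level in both of the leukaemia cell lines studied. A gene was taken when it was annotated as protein-coding, its symbol was ZNF followed by a number alone, and its mean log2 normalized value over the 9 samples of a line was at least 10 in HL-60 and in MOLM-13. In addition, 1 gene with such a symbol was left out beforehand. It had a mean of 11.55 in HL-60 and 5.35 in MOLM-13, so it did not reach the level in both lines. The files listed 421 genes with such a symbol for at least 1 line and 351 for both. Apart from the gene left out, 172 of the 351 stayed below the level. A further 52 were listed for HL-60 alone and 18 for MOLM-13 alone. The members were chosen by level, and their levels are therefore given as a description. Just inside the threshold were ZNF543 (mean 10.79 in HL-60 and 10.02 in MOLM-13), ZNF343 (10.02 and 10.89) and ZNF169 (10.17 and 10.02). Just outside it were ZNF438 (9.99 and 10.44), ZNF211 (9.98 and 10.85) and ZNF333 (9.94 and 10.77).

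Total RNA was sequenced from 18 samples in 6 groups of 3 replicates. HL-60 and MOLM-13 are established human lines derived from acute myeloid leukaemia, and the labels name no genetic change made in them. Each line received the solvent dimethyl sulfoxide (DMSO), decitabine (DAC) or NTX-301 for 48 h and was sampled on day 2. Both drugs are analogs of deoxycytidine that deplete DNA methyltransferase 1. HL-60 received 30 nM and MOLM-13 received 15 nM by the labels, whose wording does not settle whether this holds for both drugs or for DAC alone, so the comparison of NTX-301 with DAC is between the treatments as given. Wells were treated in triplicate, and nothing states whether the triplicates came from separate cultures, so the p-values measure the spread between these samples, which may be technical.

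Proteins of this family bind DNA, and some bind RNA, through arrays of C2H2 fingers, in which a pair of cysteines and a pair of histidines hold a zinc ion. In many of them an N-terminal KRAB region recruits the corepressor TRIM28, which brings the histone methyltransferase SETDB1 and HP1 proteins and keeps transposable elements and other targets in repressive chromatin. Other members carry a SCAN region, through which they pair with each other, or neither region, and act as general transcription factors or in RNA and ribosome metabolism.

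A KRAB-like region was found in 111 of the 178 predicted proteins and was not found in 67. A SCAN-like region was found in 9, of which 7 also had a KRAB-like region. The number of C2H2 fingers ran from 0 to 31, with a median of 12 in the proteins with a KRAB-like region and of 7 in those without. Chromosome 19 held 75 of the genes (42.1%, against 7.24% of all protein-coding genes in the RefSeq gene table), and 16 lay on chromosome 7. In gene order, 55 members stood directly beside another member, in 22 runs of at most 4 genes.

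Loss of DNA methylation acts at cytosines followed by guanine (CG), and the promoter windows are shown for 4 members that the results below turn on, with each CG in capitals. Each window is the 250 bases before the start of transcription, read 5′ to 3′ on the gene's strand, from RefSeq in build GRCh38.p14. ZNF44 (chr19:12294884-12295133, minus strand, the first of its 2 windows) rose with both drugs in both lines and has 14 CG. ZNF175 (chr19:51571033-51571282, plus strand) rose with NTX-301 in HL-60 and has 20. ZNF490 (chr19:12610814-12611063, minus strand) rose in MOLM-13 and has 19, and ZNF367 (chr9:96418371-96418620, minus strand) fell there and has 30.
ZNF44: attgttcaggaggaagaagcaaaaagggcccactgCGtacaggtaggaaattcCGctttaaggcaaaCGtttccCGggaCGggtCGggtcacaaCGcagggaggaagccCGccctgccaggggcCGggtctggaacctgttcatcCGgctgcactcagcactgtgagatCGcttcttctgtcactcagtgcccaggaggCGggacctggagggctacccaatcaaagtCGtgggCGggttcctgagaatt
ZNF175: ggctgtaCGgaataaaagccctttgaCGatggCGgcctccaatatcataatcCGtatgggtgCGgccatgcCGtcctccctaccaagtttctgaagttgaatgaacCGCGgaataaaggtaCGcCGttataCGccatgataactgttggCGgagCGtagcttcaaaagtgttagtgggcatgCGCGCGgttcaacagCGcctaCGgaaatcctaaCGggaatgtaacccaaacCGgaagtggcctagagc
ZNF490: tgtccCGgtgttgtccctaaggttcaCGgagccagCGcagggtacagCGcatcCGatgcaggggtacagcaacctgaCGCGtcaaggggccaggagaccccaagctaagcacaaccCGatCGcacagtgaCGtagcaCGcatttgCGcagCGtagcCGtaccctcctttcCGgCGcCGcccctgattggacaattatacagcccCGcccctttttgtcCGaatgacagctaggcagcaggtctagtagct
ZNF367: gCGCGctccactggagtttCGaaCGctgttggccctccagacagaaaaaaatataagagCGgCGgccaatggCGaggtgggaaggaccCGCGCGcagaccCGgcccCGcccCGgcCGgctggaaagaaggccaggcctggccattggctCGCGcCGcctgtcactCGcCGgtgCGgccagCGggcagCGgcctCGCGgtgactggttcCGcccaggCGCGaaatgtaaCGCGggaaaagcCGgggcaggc
Promoter windows matched 162 members, with 203 windows in all. The median number of CG on either strand was 19 in the members' windows and 11 over all 35116 windows, and a CG occurred in 98.5% and 93.9% of them. DNA methylation itself was not measured in these samples.

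All 8 myeloid markers examined were listed in both lines, at 11.65 (CD33) to 18.71 (MPO) in HL-60 and 11.95 (SPI1) to 16.89 (PRTN3) in MOLM-13 with DMSO. Of 8 markers of other lineages, CD79A in HL-60 (6.43) and KRT18 (9.33) and COL1A1 (5.82) in MOLM-13 had values. Both lines are myeloid, so these markers do not tell the lines apart. The deposited values are log2 normalized levels whose scaling method is not stated in the sources used here, and they appear to have been scaled for each line separately. The files hold no counts, so the depth is unknown. For genes at a mean of 10 to 15, the range over the 9 samples of a line had a median of 0.18 in HL-60 and 0.23 in MOLM-13, against 0.021 and 0.027 for genes at 0 to 3. Genes at 8 to 10 had 0.23 and 0.29. Changes of genes at 0 to 3 are thus compressed on this scale, which was not seen at 8 to 10. Members are set beside the 7298 genes with a mean of at least 10 in both lines as well as beside all genes tested. These 7298 are called level-matched below because they pass the same floor of 10. Their levels above the floor were not matched to those of the members. RNA was taken from whole cultures, in which a change in the share of cells of a state and in the RNA per cell cannot be told apart.

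Group means of members ran from 9.83 to 15.01, and the median SD of a group of 3 samples was 0.028 to 0.043. The values are not stated to be corrected for gene length, so they do not rank genes by abundance. By the mean over all 18 samples the 3 highest were ZNF207, which encodes the kinetochore protein BuGZ (14.64 ± 0.031 in HL-60 and 15.01 ± 0.012 in MOLM-13 with DMSO, SD, n = 3), ZNF106 (13.80 and 14.46) and ZNF146 (14.05 and 14.35). With DMSO, HL-60 had the higher value for 108 members and MOLM-13 for 70, and 21 differed by at least 1 on the log2 scale. Giving the HL-60 value first, ZNF141 (13.31 and 10.52) and ZNF562 (12.86 and 10.81) were higher in HL-60, while ZNF395 (10.36 and 12.74) and ZNF7 (10.26 and 12.05) were higher in MOLM-13. These levels come from separately scaled tables and were not tested.

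The first question was how the well-expressed ZNF genes responded to each drug against DMSO. In HL-60, 21 members rose and 35 fell with DAC, and 36 rose and 43 fell with NTX-301. In MOLM-13, 41 rose and 30 fell with DAC, and 58 rose and 27 fell with NTX-301. These are calls at an adjusted p under 0.05 from limma's moderated test with Benjamini-Hochberg adjustment over all genes tested. All 178 members entered every test, and 142 were called in at least 1 of the 4 drug contrasts, 15 of them in all 4. Counts over the 4 contrasts were not made for other genes, so these have no background and describe the members alone. The changes were small: the median absolute change of a called member was 0.13 in HL-60 with either drug, 0.15 in MOLM-13 with DAC and 0.17 with NTX-301 on the log2 scale.

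Against the background, the share of members called in HL-60 lay between the share of all genes tested and that of the level-matched genes. With DAC it was 31.5%, against 24.2% of all 17046 genes tested and 35.1% of the level-matched genes. With NTX-301 it was 44.4%, against 37.4% and 52.3%. Of all genes tested, 11.6% rose and 12.6% fell with DAC, and 18.3% and 19.2% with NTX-301. With DAC 11.8% of members were higher and 19.7% lower, against 13.1% and 22% of the level-matched genes, and with NTX-301 20.2% and 24.2%, against 18.2% and 34.1%.

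In MOLM-13 the share called was 39.9% with DAC, against 36.6% of all 17475 genes and 54.8% of the level-matched genes. With NTX-301 it was 47.8%, against 45.1% and 64.2%. The direction was set beside that of the level-matched genes, with no test of the difference. These share the floor of 10 and were not matched above it. With NTX-301, 32.6% of members rose and 15.2% fell, while 15.3% of level-matched genes rose and 48.9% fell. With DAC, 23% of members rose and 16.9% fell, against 12.4% and 42.4%. Of all genes tested in MOLM-13, 20.3% rose and 24.8% fell with NTX-301, and 15.4% and 21.2% with DAC. Median changes of members with DAC and NTX-301 were −0.021 and 0.003 for HL-60, then 0.020 and 0.039 for MOLM-13, and those of the level-matched genes −0.020, −0.030, −0.065 and −0.085.

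**Figure D1:**
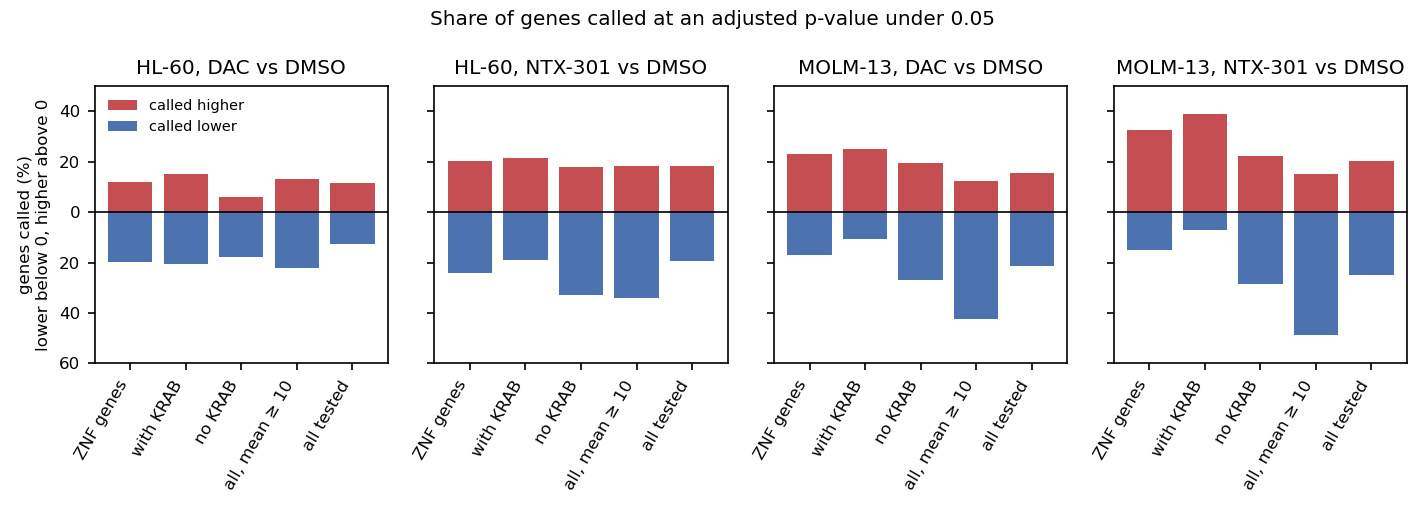
Percentage of genes called higher (above 0) or lower (below 0) at an adjusted p under 0.05 in each drug contrast, for the 178 ZNF genes, the 111 with and 67 without a KRAB-like region, the 7298 genes with a mean of at least 10 in both lines, and all genes tested. In MOLM-13 with NTX-301, 32.6% of the ZNF genes were called higher, against 15.3% of the genes with a mean of at least 10.

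The split between higher and lower calls depended on the scaling. With each sample centred on its median, the counts became, higher and lower, 23 and 33 (HL-60, DAC), 22 and 65 (HL-60, NTX-301), 24 and 46 (MOLM-13, DAC) and 49 and 38 (MOLM-13, NTX-301). With quantile normalization they became, in that order, 26 and 26, 50 and 33, 49 and 17, and 75 and 15. The level-matched genes moved the same way: with NTX-301 in MOLM-13, 11.7% were higher and 56.2% lower after centring, and 26.8% and 32.6% after quantile normalization. Leaving out 1 library changed the 30 lower calls with DAC in MOLM-13 to 19 without DMSO replicate 2, 18 without DMSO replicate 3 and 17 without DAC replicate 3.

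Among the members with a KRAB-like region, 17 rose and 23 fell with DAC and 24 rose and 21 fell with NTX-301 in HL-60, out of 111. With DAC that is 15.3% and 20.7%, near the 13.1% and 22% of level-matched genes. With NTX-301 it is 21.6% and 18.9%, against 18.2% and 34.1%. The shares of all genes tested are given above. In MOLM-13, 28 rose and 12 fell with DAC, and 43 rose and 8 fell with NTX-301. With DAC that is 25.2% and 10.8%, against 12.4% and 42.4% of level-matched genes. With NTX-301 it is 38.7% and 7.21%, against 15.3% and 48.9%. Centring gave 37 and 14 for that comparison and quantile normalization 50 and 3, but centring turned the split for DAC in MOLM-13 to 17 higher and 21 lower. In HL-60 the NTX-301 splits were 16 and 33 after centring and 33 and 14 after quantile normalization. The 67 members without such a region split 4 and 12 and 12 and 22 in HL-60, and 13 and 18 and 15 and 19 in MOLM-13, in the same order of drugs. In HL-60 that is 5.97% and 17.9%, then 17.9% and 32.8%. In MOLM-13 it is 19.4% and 26.9%, then 22.4% and 28.4%. After centring the MOLM-13 splits of these 67 were 7 and 25 and 12 and 24, and after quantile normalization 18 and 10 and 25 and 12, so that their direction turned with the scaling. The differences between the 2 kinds of protein were not tested.

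Several KRAB zinc finger proteins have known targets in repeats or imprinted genes. Of a list of such genes, 8 were members, and none of the 8 fell. In HL-60, 3 rose with DAC and 4 with NTX-301. In MOLM-13, 5 rose with DAC and 5 with NTX-301, not all of them the same genes. This is 37.5%, 50%, 62.5% and 62.5% of 8 genes, against 13.1%, 18.2%, 12.4% and 15.3% of level-matched genes and 11.6%, 18.3%, 15.4% and 20.3% of all genes tested. Of the 8, ZNF417 and ZNF587 are near-identical and can share reads, so their calls may not be separate. The list was drawn up with earlier results of these data known. After centring, 2 rose with NTX-301 in HL-60, and 1 of the 8 fell with each drug in MOLM-13.

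ZNF445, which helps to maintain methylation at imprinted loci, had 13.26, 13.19 and 13.21 in the HL-60 samples with DMSO, 13.29, 13.26 and 13.33 with DAC, and 13.43, 13.42 and 13.42 with NTX-301. In MOLM-13 it had 12.52, 12.47 and 12.49, then 12.63, 12.61 and 12.63, then 12.69, 12.64 and 12.71. In both lines the NTX-301 samples were all above the DMSO samples, and the DAC samples did not overlap with DMSO in MOLM-13. The change with NTX-301 was 0.20 ± 0.024 (SE) in HL-60 (adjusted p = 1.26e-05) and 0.19 ± 0.026 in MOLM-13 (adjusted p = 0.000117). The DAC changes were 0.08 in HL-60 (adjusted p = 0.0327) and 0.13 in MOLM-13 (adjusted p = 0.00201), and the HL-60 one was lost without DMSO replicate 2 or 3 or DAC replicate 1 or 3, with adjusted p up to 0.13.

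ZNF417 and ZNF587, near-identical genes whose proteins restrain young endogenous retroviruses, are given together, since reads can be split between them. ZNF417 changed by 0.08, 0.13, 0.15 and 0.24 (DAC and NTX-301 in HL-60, then in MOLM-13), and ZNF587 by 0.11, 0.07, 0.15 and 0.21. All of these passed the test except ZNF587 with NTX-301 in HL-60 (adjusted p = 0.0564). The ZNF417 call with DAC in HL-60 was lost without DMSO replicate 2 or 3 or any 1 DAC replicate, with adjusted p up to 0.109. ZNF808, which silences MER11 elements, rose by 0.18 and 0.15 in MOLM-13 and by 0.07 with NTX-301 in HL-60, where the call was lost after centring (0.03) and without DMSO replicate 2 or 3 or any 1 NTX-301 replicate. ZNF274, which brings SETDB1 to the 3′ ends of zinc finger genes, rose by 0.15 with DAC in MOLM-13 (adjusted p = 0.00905). Its call with NTX-301 in HL-60 was lost after centring (0.05, adjusted p = 0.203). That call was also lost without DMSO replicate 1 or 3 or any 1 DAC or NTX-301 replicate. ZNF248 was called with NTX-301 in MOLM-13. The call was lost under quantile normalization (adjusted p = 0.0586) and without DMSO replicate 2 or NTX-301 replicate 2. ZNF765 and ZNF430 passed in no drug contrast, and ZNF91, the silencer of SVA elements, stayed outside the set because it had 12.75 in HL-60 and 4.95 in MOLM-13 with DMSO.

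ZNF44, a KRAB zinc finger gene, had the highest change of all members in HL-60. Its values there were 9.89, 9.77 and 9.82 with DMSO, 10.07, 10.19 and 10.05 with DAC, and 10.43, 10.42 and 10.44 with NTX-301. In MOLM-13 they were 10.83, 10.92 and 10.82, then 10.99, 10.99 and 11.10, then 11.07, 11.18 and 11.16. In HL-60 the 3 groups did not overlap, and in MOLM-13 both drug groups lay above DMSO. DAC changed it by 0.28 ± 0.041 (SE, adjusted p = 0.00024) and NTX-301 by 0.60 ± 0.041 (adjusted p = 7.49e-08) in HL-60. In MOLM-13 DAC changed it by 0.17 (adjusted p = 0.0093) and NTX-301 by 0.28 (adjusted p = 0.000285). The NTX-301 effect was larger in HL-60 by a test of the difference between lines (MOLM-13 minus HL-60 −0.32 ± 0.063, adjusted p = 0.000413). Its printed window, with 14 CG, lies below the members' median of 19.

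ZNF175, a KRAB protein reported to restrain HIV-1 transcription in macrophages, responded to NTX-301 in HL-60. It had 10.63, 10.67 and 10.63 with DMSO, 10.73, 10.70 and 10.70 with DAC, and 11.01 in all 3 samples with NTX-301. The NTX-301 samples stood apart from both other groups, by 0.37 ± 0.026 (SE) from DMSO (adjusted p = 1.04e-07) and by 0.30 ± 0.026 from DAC (adjusted p = 1.15e-06). The DAC change of 0.07 did not pass (adjusted p = 0.0804). In MOLM-13 the values overlapped, with 10.75, 10.75 and 10.63 for DMSO and 10.70, 10.73 and 10.81 for NTX-301. The line difference in the NTX-301 effect was −0.32 ± 0.052 (adjusted p = 6.24e-05).

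ZNF302 rose by 0.23 with DAC and by 0.23 with NTX-301 in HL-60 and had 0.03 with either drug in MOLM-13. ZNF83, in which no KRAB-like region was found, rose by 0.23 in HL-60 and by 0.19 in MOLM-13 with NTX-301. ZNF267 fell furthest with NTX-301 in HL-60, from 11.81, 11.86 and 11.79 to 11.48, 11.51 and 11.56, with no overlap. Its change was −0.30 ± 0.029 (SE, adjusted p = 2.33e-06), and in MOLM-13 it was −0.03 (adjusted p = 0.499). With DAC in HL-60, ZNF74, which lies in the chromosome 22 region deleted in DiGeorge syndrome, fell by 0.20 (adjusted p = 0.000486), and ZNF394, which has both a SCAN-like and a KRAB-like region, fell by 0.20 (adjusted p = 7.62e-05). In MOLM-13, ZNF74 had 0.04 and ZNF394 −0.09 with DAC.

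**Figure D2:**
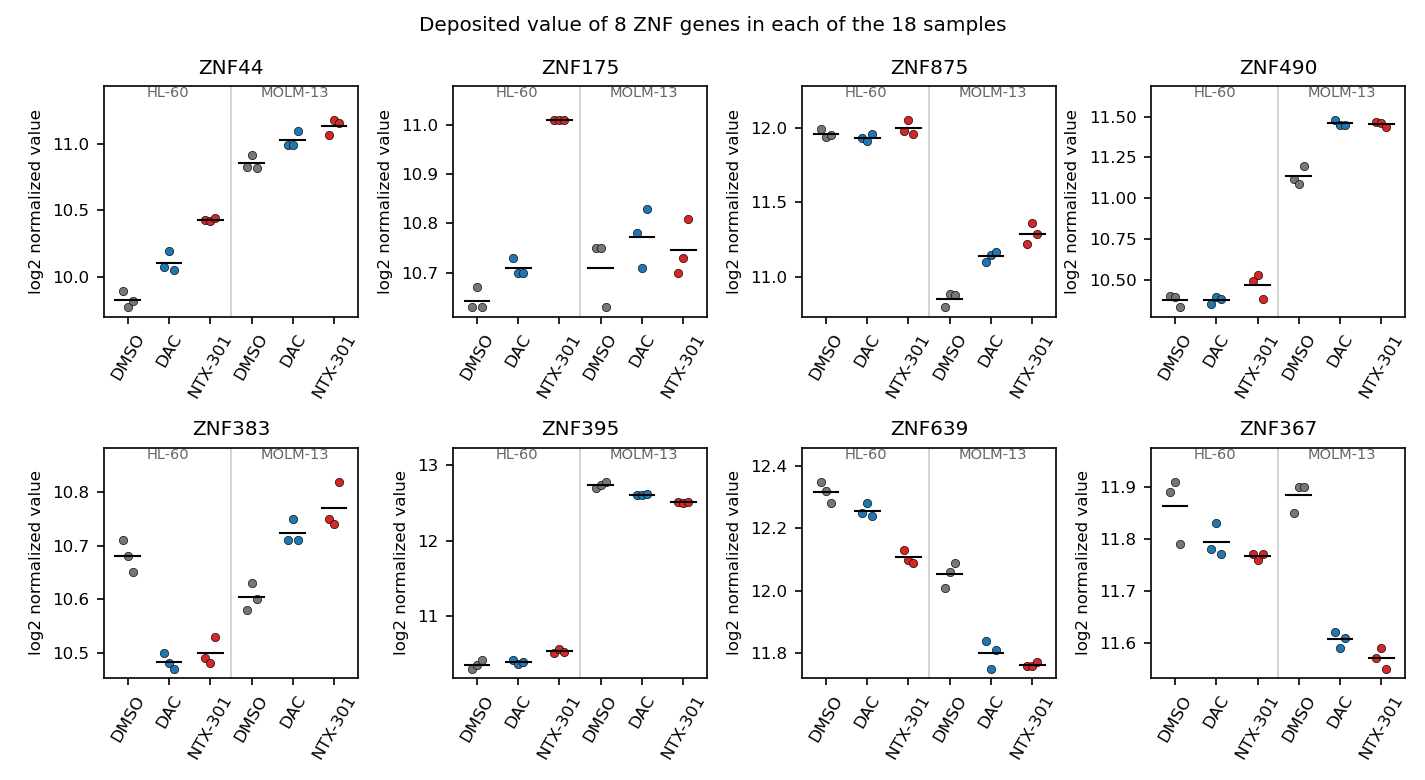
Deposited log2 normalized value of 8 ZNF genes in each of the 18 samples, by line and treatment, with bars at the mean of 3 replicates and a separate vertical scale for each gene. ZNF175 stands at 11.01 in the 3 HL-60 samples with NTX-301, and ZNF383 moves down in HL-60 and up in MOLM-13.

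In MOLM-13 the 3 members with the highest called change with each drug all had a KRAB-like region, as did 111 of all 178 members. ZNF875, formerly named HKR1, had 10.80, 10.89 and 10.88 with DMSO, 11.10, 11.15 and 11.17 with DAC, and 11.22, 11.36 and 11.29 with NTX-301. No sample of one group reached into another. It rose by 0.28 ± 0.042 (SE) with DAC (adjusted p = 0.000285) and by 0.43 ± 0.042 with NTX-301 (adjusted p = 9.45e-06). In HL-60 it changed by −0.02 and 0.04, and the line differences were 0.31 for DAC (adjusted p = 0.000136) and 0.40 for NTX-301 (adjusted p = 4.61e-06).

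ZNF490 had 11.12, 11.09 and 11.20 with DMSO in MOLM-13, 11.48, 11.45 and 11.45 with DAC, and 11.47, 11.46 and 11.44 with NTX-301. Both drug groups lay above DMSO and overlapped with each other. DAC changed it by 0.32 ± 0.032 (SE, adjusted p = 2.12e-05) and NTX-301 by 0.32 ± 0.032 (adjusted p = 1.2e-05), and NTX-301 minus DAC was 0.00 with a 95% interval of −0.07 to 0.07. In HL-60 the DAC change of ZNF490 was 0.00 (−0.08 to 0.08) and the NTX-301 change 0.09 (adjusted p = 0.0669). ZNF264 rose by 0.25 with DAC and 0.16 with NTX-301 in MOLM-13. ZNF133, whose KRAB region is known to bind TRIM28, rose by 0.30 with NTX-301 there (adjusted p = 0.000572).

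Members without a KRAB-like region, 67 of the 178, led the falls in MOLM-13. ZNF367, a transcription factor with 2 fingers, had 11.85, 11.90 and 11.90 with DMSO, 11.62, 11.59 and 11.61 with DAC, and 11.57, 11.59 and 11.55 with NTX-301. All drug samples were below all DMSO samples. With DAC it fell by 0.27 ± 0.026 (SE, adjusted p = 1.64e-05), and under NTX-301 the fall was −0.32 ± 0.026 (adjusted p = 3.6e-06). For HL-60 the changes were −0.07 (adjusted p = 0.106) and −0.10 (adjusted p = 0.0222), and the second was lost without DMSO replicate 1 or 2 or NTX-301 replicate 2 (−0.07 and adjusted p = 0.104 without DMSO replicate 2).

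ZNF639 fell in MOLM-13 by 0.25 ± 0.031 with DAC (adjusted p = 7.19e-05) and by 0.29 ± 0.031 with NTX-301 (adjusted p = 1.64e-05). In HL-60 it had 12.35, 12.32 and 12.28 with DMSO and 12.13, 12.10 and 12.09 with NTX-301, without overlap, a change of −0.21 ± 0.024 (adjusted p = 1.17e-05). ZNF143, an activator of small nuclear RNA genes and of many promoters, fell by 0.26 with DAC (adjusted p = 0.000293) and by 0.17 with NTX-301 (adjusted p = 0.00387) in MOLM-13, and by 0.12 with NTX-301 in HL-60 (adjusted p = 0.00466). Its HL-60 change with DAC was −0.09 (adjusted p = 0.0407), which was lost without any 1 DMSO replicate, DAC replicate 2 or 3, or NTX-301 replicate 1 or 2, with adjusted p up to 0.156. ZNF511 fell by 0.28 with NTX-301 in MOLM-13 (adjusted p = 0.000342).

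In HL-60, ZNF516, a transcription factor that activates brown fat genes, had 12.99, 13.03 and 13.02 with DMSO, 12.86, 12.87 and 12.85 with DAC, and 12.73, 12.75 and 12.76 with NTX-301. The 3 groups did not overlap, and the DAC change was −0.15 ± 0.02 (SE, adjusted p = 0.000114) and the NTX-301 change −0.26 ± 0.02 (adjusted p = 2.32e-07). ZNF207 fell by 0.23 with NTX-301 in HL-60 (adjusted p = 9.22e-07) and had −0.04 in MOLM-13 (adjusted p = 0.18). ZNF839, in which no finger of the searched pattern was found, fell by 0.21 with DAC in HL-60 (adjusted p = 0.00045). ZNF217, a breast cancer oncogene whose product works with CtBP corepressors, rose by 0.20 with DAC in HL-60 (adjusted p = 0.000253).

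Of the members called in all 4 drug contrasts, 7 were higher in each and 5 lower in each. No background was counted for these numbers. ZNF622, an assembly factor of the large ribosomal subunit, fell by 0.17 and 0.18 in HL-60 and by 0.16 and 0.21 in MOLM-13 with DAC and NTX-301. ZNF593, also an assembly factor of that subunit, fell by 0.13, 0.16, 0.18 and 0.18 in the same order. The DAC call of ZNF622 in MOLM-13 was lost without DMSO replicate 2 (−0.14, adjusted p = 0.0595), DMSO replicate 3 (−0.13, adjusted p = 0.064) or DAC replicate 3 (−0.14, adjusted p = 0.0575), and that of ZNF593 in HL-60 without DMSO replicate 2 (−0.09, adjusted p = 0.0749) or DAC replicate 1 (−0.12, adjusted p = 0.0518). ZNF263, ZNF143 and ZNF330 were the other 3 that fell in all 4, and ZNF263 lost both MOLM-13 calls under quantile normalization (−0.09 and −0.09). ZNF598, the ubiquitin ligase that senses collided ribosomes, changed by −0.18 (HL-60) and −0.24 (MOLM-13) under NTX-301, and its DAC changes did not pass.

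The 7 that rose in all 4 were ZNF44, ZNF107, ZNF217, ZNF397, ZNF417, ZNF445 and ZNF493. ZNF397, a SCAN protein found at centromeres, rose by 0.16 and 0.18 in HL-60 and by 0.20 and 0.18 in MOLM-13. ZNF493 rose by 0.18 and 0.15, and by 0.20 and 0.24. The ZNF217 calls with NTX-301 in HL-60 (0.10) and with DAC in MOLM-13 (0.09) were lost after centring (0.06 and 0.06), and the first also without DMSO replicate 2 (0.07) or NTX-301 replicate 2 (0.07). The DAC and NTX-301 contrasts of a line share their DMSO samples, so a call in both is not a repeat. Over a list of 25 members with known roles in transcription, chromatin or RNA, 3 rose and 5 fell with DAC in HL-60, 4 and 8 with NTX-301, and 5 and 8 with either drug in MOLM-13. The share called was 32%, 48%, 52% and 52%, against 35.1%, 52.3%, 54.8% and 64.2% of level-matched genes, which is near or below the background. Centring gave 0 and 13 (HL-60, NTX-301), 1 and 12 (MOLM-13, DAC) and 4 and 11 (MOLM-13, NTX-301), and quantile normalization turned the MOLM-13 splits to 8 and 4 and 11 and 4. Values on this list with NTX-301, HL-60 first, include ZNF24 (−0.13 and −0.16), ZNF609 (0.02 and 0.16) and the double-stranded RNA binder ZNF346 (0.09 and 0.13). The ZNF24 call in MOLM-13 was lost under quantile normalization (−0.06, adjusted p = 0.052). That of ZNF346 in HL-60 was lost after centring (0.05, adjusted p = 0.144) and without DMSO replicate 1 or 3 or NTX-301 replicate 1 or 3.

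The corepressors through which KRAB proteins act were taken from a list of other silencing genes, of which 28 were measured. In HL-60, 4 rose and 5 fell with DAC, and 5 and 10 with NTX-301. That is 32.1% and 53.6% called, near the 35.1% and 52.3% of level-matched genes. Of all genes tested there, 24.2% and 37.4% were called. In MOLM-13, 2 rose and 16 fell with DAC, and 4 and 16 with NTX-301, with list medians of −0.097 and −0.094 against −0.065 and −0.085 for the level-matched genes. The share called in MOLM-13 was 64.3% and 71.4%, against 54.8% and 64.2% of level-matched genes and 36.6% and 45.1% of all genes tested. By direction, 7.14% rose and 57.1% fell with DAC, and 14.3% and 57.1% with NTX-301. Level-matched genes had 12.4% and 42.4% with DAC, and 15.3% and 48.9% with NTX-301. With quantile normalization the MOLM-13 splits became 4 and 7 and 8 and 10, and that of NTX-301 in HL-60 turned to 8 and 7.

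TRIM28 changed by −0.09 and −0.17 in MOLM-13 with DAC and NTX-301 (adjusted p = 0.00831 and 0.000137) and by 0.00 and 0.02 in HL-60. Under quantile normalization its MOLM-13 changes were 0.03 and −0.04, and neither passed. Of the HP1 genes, CBX1 fell by 0.31 and 0.35 and CBX3 by 0.21 and 0.30 in MOLM-13, while CBX5 fell by 0.23 and 0.44 in HL-60. CBX5 had −0.06 and −0.07 in MOLM-13, and CBX1 had 0.01 and −0.01 in HL-60. By the test of the difference between lines, CBX1 was lower in MOLM-13 with NTX-301 (−0.34, adjusted p = 9.11e-06) and CBX5 higher (0.37, adjusted p = 1.09e-06). SETDB1 fell with DAC in HL-60 (−0.13, adjusted p = 0.00205) and passed in no other drug contrast.

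NTX-301 and DAC were then compared directly within each line. In HL-60, 35 members were higher and 26 lower with NTX-301 (34.3%, against 30.4% of all genes tested and 45.1% of level-matched genes, which split 19.6% higher and 25.5% lower). Centring turned this to 22 higher and 42 lower, and quantile normalization gave 44 and 18, and without NTX-301 replicate 1 the lower calls were 16. ZNF44 (0.32) and ZNF175 (0.30) led upwards, and ZNF189 (−0.25) and ZNF652 (−0.19) downwards. ZNF189 went up by 0.15 with DAC, with 11.14, 11.18 and 11.07 for DMSO, 11.32, 11.26 and 11.26 for DAC and 10.96, 11.07 and 11.06 for NTX-301. Its NTX-301 samples overlapped with DMSO and lay below all DAC samples.

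In MOLM-13 the drugs differed in 11 members, 10 higher and 1 lower with NTX-301 (6.18%, against 7.42% of all genes tested and 11.7% of level-matched genes). Of level-matched genes 3.63% were higher and 8.08% lower, and of all genes tested 3.01% and 4.41%. The members' counts rested on single libraries: higher calls were 6 without DMSO replicate 2 or DAC replicate 1, 4 without DAC replicate 2, and 2 without NTX-301 replicate 2 or 3. ZNF655 was higher by 0.19 ± 0.032 (SE, adjusted p = 0.00607), with 11.69, 11.69 and 11.70 for NTX-301 and 11.53, 11.51 and 11.48 for DAC. ZNF700 was higher by 0.16 (adjusted p = 0.0138), a call lost without NTX-301 replicate 2 (0.13) or 3 (0.14). The lower one was ZNF395 (−0.10, adjusted p = 0.0321), lost without any 1 of the DAC or NTX-301 replicates, with adjusted p up to 0.106.

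The 2 lines share no samples, and the drug effects were compared between them by a test of the difference itself. The DAC effect differed in 57 members, higher in MOLM-13 for 39 and lower for 18 (32%, against 30% of all genes tested and 42.1% of level-matched genes). The NTX-301 effect differed in 71, higher in MOLM-13 for 49 and lower for 22 (39.9%, against 40% and 53%). Centring turned the DAC split to 24 and 31 and left the NTX-301 split at 49 and 21. Level-matched genes split 11.6% higher and 30.5% lower for DAC and 17.5% and 35.5% for NTX-301. The median differences were 0.026 and 0.043, against −0.050 and −0.050 for level-matched genes.

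With DAC, 23 members were called in both lines, 8 higher in both, 10 lower in both, and 5 lower in HL-60 and higher in MOLM-13. These 23 were 41.1% of the members called in HL-60 and 32.4% of those called in MOLM-13. For level-matched genes the shares were 58.7% and 37.7%. With NTX-301, 42 were called in both, 21 higher in both, 10 lower in both, 9 lower in HL-60 and higher in MOLM-13, and 2 the reverse. These 42 were 53.2% and 49.4% of the members called in HL-60 and in MOLM-13, against 67.9% and 55.4% for level-matched genes. The sign was shared by 78.3% and 73.8% of the members called in both, against 72.6% and 70.7% of level-matched genes, which is near the background. The directions were split otherwise. Of 1506 level-matched genes called in both lines with DAC, 239 rose and 855 fell in both. A further 269 rose in HL-60 and fell in MOLM-13, and 143 did the reverse. With NTX-301 the counts, of 2592, were 355, 1478, 507 and 252 in that order. This difference was not tested, and these counts were made on the deposited scaling alone.

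**Figure D3:**
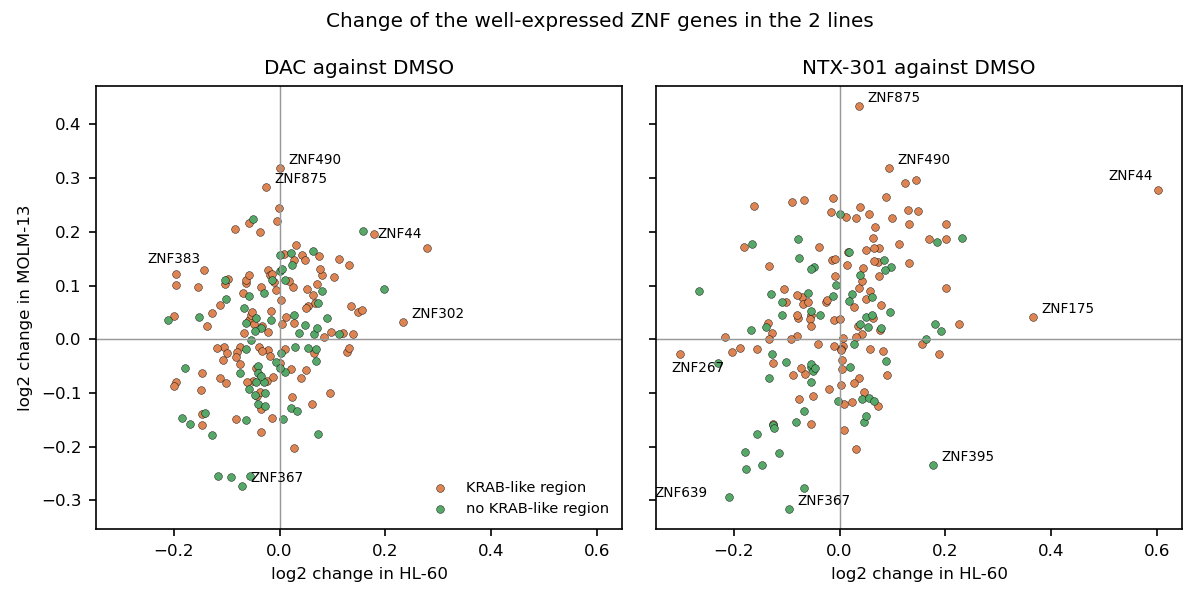
Log2 change of each of the 178 ZNF genes in HL-60 (horizontal) and MOLM-13 (vertical) with DAC and with NTX-301 against DMSO, coloured by whether a KRAB-like region was found. ZNF44 lies at 0.60 and 0.28 with NTX-301, and ZNF395 lies in the lower right at 0.18 and −0.23.

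ZNF383, a KRAB zinc finger gene, moved in opposite directions. In HL-60 it had 10.71, 10.68 and 10.65 with DMSO, 10.50, 10.48 and 10.47 with DAC and 10.49, 10.48 and 10.53 with NTX-301. In MOLM-13 it had 10.58, 10.63 and 10.60, then 10.71, 10.75 and 10.71, then 10.75, 10.74 and 10.82. Both drug groups lay below DMSO in HL-60 and above it in MOLM-13. The HL-60 changes were −0.20 and −0.18 and the MOLM-13 changes 0.12 and 0.17, and the line differences were 0.32 ± 0.041 (SE, adjusted p = 1.1e-05) for DAC and 0.35 ± 0.041 (adjusted p = 1.85e-06) for NTX-301. After centring, the MOLM-13 change with DAC did not pass (0.09, adjusted p = 0.0694).

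ZNF395, a transcription factor induced by hypoxia, went the other way with NTX-301. It had 10.31, 10.36 and 10.42 with DMSO and 10.52, 10.57 and 10.53 with NTX-301 in HL-60, and 12.70, 12.74 and 12.78 and 12.51, 12.50 and 12.51 in MOLM-13. The groups did not overlap in either line. It rose by 0.18 in HL-60 (adjusted p = 0.000617) and fell by 0.23 in MOLM-13 (adjusted p = 1.71e-05), a difference of −0.41 ± 0.039 (SE, adjusted p = 1.42e-07).

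ZNF652, a partner of the corepressor CBFA2T3, fell by 0.17 in HL-60 and rose by 0.18 in MOLM-13 with NTX-301 (difference 0.34, adjusted p = 5.32e-07). ZNF564 had −0.14 and −0.16 (HL-60) and 0.13 and 0.25 (the other line) with DAC and NTX-301, and its difference for NTX-301 was 0.41 (adjusted p = 9.15e-06). The DAC calls of ZNF564 were lost in HL-60 without DAC replicate 1 (−0.11, adjusted p = 0.0576) and in MOLM-13 after centring (0.09, adjusted p = 0.0986) or without DMSO replicate 1 (0.10), DMSO replicate 2 (0.14), DAC replicate 1 (0.09) or DAC replicate 3 (0.13). ZNF337 had −0.15 in HL-60 and 0.10 in MOLM-13 with DAC, and the second was lost after centring (0.06, adjusted p = 0.153) or without DMSO replicate 3 (0.07) or DAC replicate 3 (0.09). An antisense gene is listed for ZNF337, and it is not stated whether the counting used strand. ZNF714 fell by 0.18 with DAC in MOLM-13 and had 0.07 in HL-60 (difference −0.25, adjusted p = 7.34e-05), and ZNF184 fell by 0.20 and had 0.03 (difference −0.23, adjusted p = 0.0094).

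What the members share beyond level was described without a test. The number of fingers and the change were weakly related: Spearman's rho between finger number and change over the 178 genes was, for DAC and NTX-301, 0.12 and 0.27 (HL-60), then 0.31 and 0.34 (MOLM-13). These points share their libraries. Of the 87 members with more than 10 fingers, 40 rose and 5 fell with NTX-301 in MOLM-13, and of the other 91, 18 rose and 22 fell. That is 46% higher and 5.75% lower against 19.8% and 24.2%, beside 15.3% and 48.9% of level-matched genes and 20.3% and 24.8% of all genes tested. After centring these counts were 33 and 8, and 16 and 30. Fingers were more numerous in proteins with a KRAB-like region (median 12, against 7 without), so finger number and this region were not told apart. Over the 162 genes with a promoter window, rho between the change and the number of CG in the whole 300-base window (250 bases before the start and 50 after it, median 22 in members) was −0.11 and −0.20 (HL-60), then −0.14 and −0.21 (MOLM-13).

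**Figure D4:**
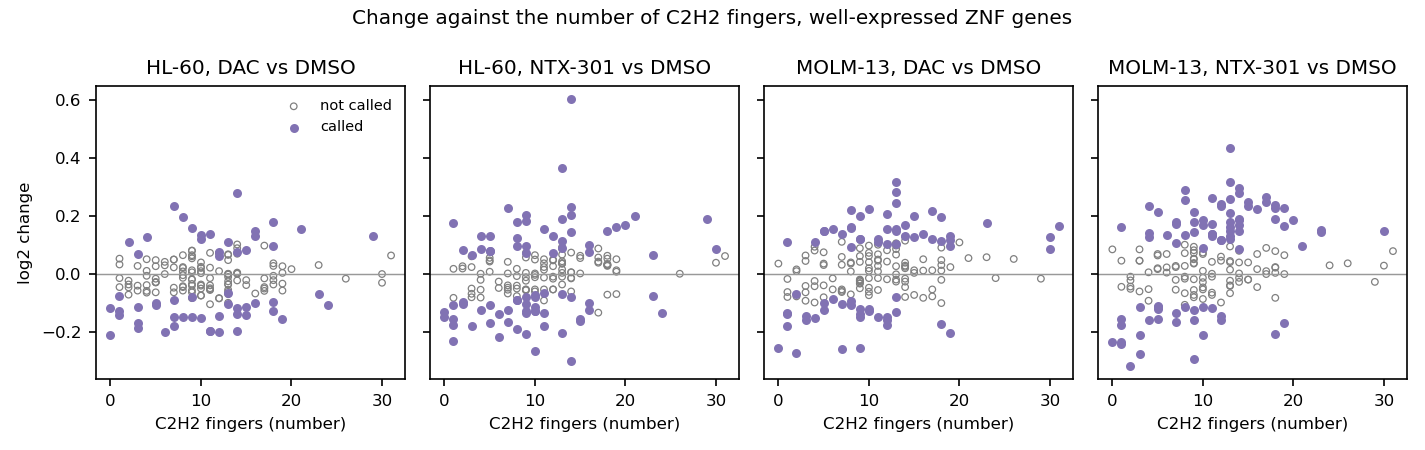
Log2 change of each ZNF gene against DMSO (vertical) by its number of C2H2 fingers (horizontal) in the 4 drug contrasts, with filled points for genes called at an adjusted p under 0.05. With NTX-301 in MOLM-13, 40 of the 87 genes with more than 10 fingers were called higher and 5 lower.

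Neighbouring members were compared along the chromosomes. The 55 members beside another member split 5 higher and 11 lower with DAC and 12 and 14 with NTX-301 in HL-60, and 17 and 3 and 24 and 2 in MOLM-13. In HL-60 this is 9.09% higher and 20% lower with DAC (13.1% and 22% of level-matched genes) and 21.8% and 25.5% with NTX-301 (18.2% and 34.1%). In MOLM-13 it is 30.9% and 5.45% with DAC (12.4% and 42.4%) and 43.6% and 3.64% with NTX-301 (15.3% and 48.9%). After centring the MOLM-13 splits were 11 and 7 and 19 and 5, and the NTX-301 split in HL-60 was 4 and 17 (16 and 10 after quantile normalization). On chromosome 19, ZNF564, ZNF490 and ZNF791 stand in a row and rose in MOLM-13 with both drugs, ZNF791 by 0.12 and 0.25. In HL-60, ZNF564 fell while ZNF490 and ZNF791 did not pass. The row of ZNF430, ZNF714, ZNF431 and ZNF708 on the same chromosome was mixed: with NTX-301 in MOLM-13, ZNF714 fell by 0.14 (−0.04 and not passed after quantile normalization), ZNF431 rose by 0.12 and ZNF708 by 0.15, and ZNF430 had −0.07. Neighbours of this family can be similar in sequence, so reads may be shared between them.

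**Figure D5:**
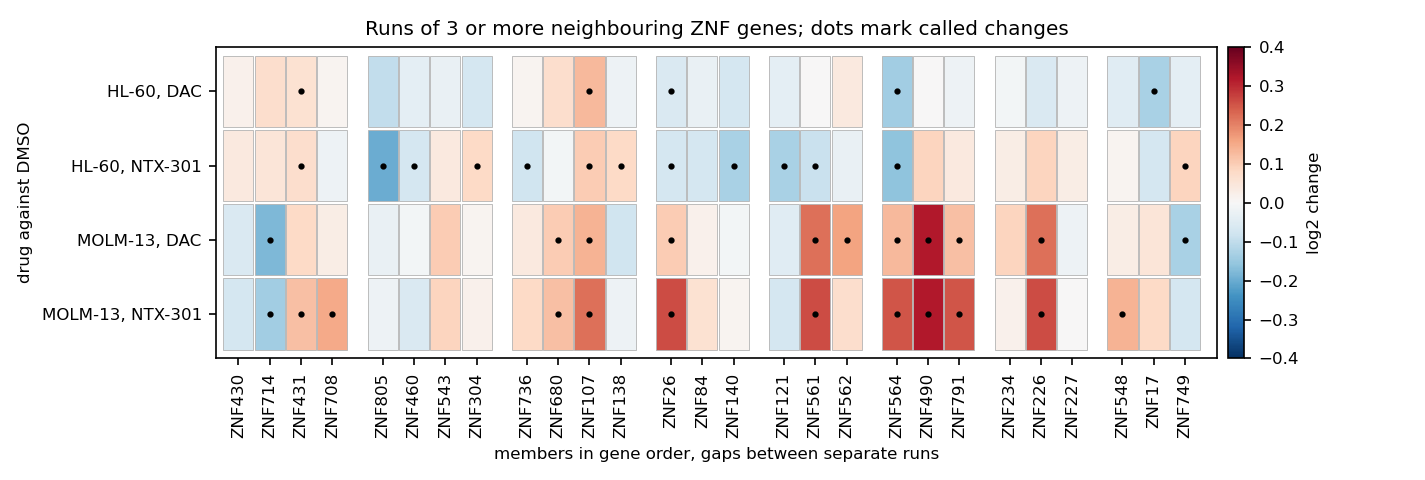
Log2 change against DMSO (colour) of the members that stand in runs of 3 or more adjacent ZNF genes, in gene order, for the 4 drug contrasts, with dots on changes called at an adjusted p under 0.05. ZNF564, ZNF490 and ZNF791 were called higher with both drugs in MOLM-13.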

How the data were processed

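RNA from 18 samples was sequenced as stranded total RNA, per the labels' protocols. The submitters' processing notes name FastQC, Trimmomatic 0.38, HISAT2, StringTie and hg19, and their roles and settings are not given in the sources used here. The deposited values are log2 normalized levels per gene in 1 table for each line, and no counts were used. A gene was tested where 3 or more samples had a linear value of 1 or more, which removed 64 in HL-60 and 0 in MOLM-13. Contrasts were fitted with limma 3.58.1 in R 4.3.3, with a mean-variance trend and each line's 3 groups sharing 1 estimate of spread, and p-values took the Benjamini-Hochberg adjustment across every gene tested, with calls at 0.05. Line differences came from a fit on the genes in both tables. The fit was checked on simulated data.

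Fingers were counted by the C2H2 pattern in the longest translated GENCODE coding sequence of each gene. KRAB-like and SCAN-like regions were searched with profiles (pyhmmer 0.12.3, E-value under 0.001) in that sequence and in each other coding sequence that holds a finger. Gene order and promoters are from RefSeq GRCh38.p14. Named members were the 3 highest and 3 lowest called without overlap per drug contrast, the 2 highest and 2 lowest in other contrasts, members of the role lists, and the leading members called in all 4 drug contrasts or with opposite signs in the lines. Names outside this rule (ZNF791, ZNF431, ZNF708, ZNF330, ZNF107) complete a run or a count and were chosen after their values were seen. The members and lists were chosen with earlier results of these data known. Alternatives were centring, quantile normalization, other filters and fits, a replicate block and leaving out each library.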

Additional observations from a re-analysis of the deposited data

Results flagged for a closer look

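The effect of a drug differed between MOLM-13 and HL-60 by a test of the difference itself (limma, adjusted p under 0.05 over all genes tested) in 57 members for DAC and 71 for NTX-301. That is 32% and 39.9% of members, against 30% and 40% of all genes tested. Of level-matched genes it was 42.1% and 53%, so the counts are near or below the background. The values that follow are MOLM-13 minus HL-60 on the log2 scale.

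For DAC, the effect was higher in MOLM-13 for ZNF490 (0.32), ZNF383 (0.32), ZNF875 (0.31), ZNF564 (0.27), ZNF264 (0.25), ZNF337 (0.25), ZNF839 (0.25), ZNF74 (0.24) and ZNF394 (0.11). It was lower for ZNF714 (−0.25), ZNF184 (−0.23), ZNF302 (−0.20), ZNF367 (−0.20), ZNF639 (−0.20), ZNF143 (−0.17) and the oncogene ZNF217 (−0.11).

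For NTX-301, the effect was higher in MOLM-13 for ZNF564 (0.41), ZNF875 (0.40), ZNF383 (0.35), ZNF516 (0.35), ZNF652 (0.34), ZNF267 (0.27), ZNF490 (0.23) and the kinetochore gene ZNF207 (0.18). It was lower for ZNF395 (−0.41), ZNF44 (−0.32), ZNF175 (−0.32), ZNF367 (−0.22) and ZNF511 (−0.21).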

How the results depend on the processing

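Of 276 recomputed counts of called members, 250 stayed within 1.5 times the reported count and 26 did not. The cause was not tested. Centring each sample on its median gave, higher and lower, 22 and 65 (HL-60, NTX-301), 22 and 42 for NTX-301 against DAC there, 24 and 46 for DAC in MOLM-13, 0 lower for NTX-301 against DAC in MOLM-13, and 24 and 31 for the line difference in the DAC effect. Quantile normalization gave 17 lower (MOLM-13, DAC) and 15 lower (MOLM-13, NTX-301).

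Leaving out 1 library in turn gave these ranges of higher and lower calls: 14 to 22 and 24 to 36 for DAC in HL-60, 24 to 35 and 35 to 46 for NTX-301 in HL-60, and 26 to 36 and 16 to 28 for NTX-301 against DAC in HL-60. In MOLM-13 they were 30 to 41 and 17 to 32 for DAC, 50 to 58 and 19 to 30 for NTX-301, and 2 to 11 and 0 to 1 for NTX-301 against DAC. For the line differences they were 28 to 40 and 12 to 23 for DAC and 44 to 51 and 17 to 25 for NTX-301.

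Of 5817 recomputed values of named genes, 5447 were counted as the same, which can include small changes that did not pass and turned sign. Of the rest, 248 lost a call, 109 gained one and 13 reversed, all 13 under quantile normalization. In MOLM-13 with DAC these were ZNF106 (0.05), ZNF638 (0.02), ZNF292 (0.07) and TRIM28 (0.03). With NTX-301 they were ZNF106 (0.02), ZNF638 (0.05), ZNF451 (0.07), ZNF318 (0.08), SETDB1 (0.06), SETDB2 (0.01), TASOR (0.01), CHD4 (0.01) and SMARCAD1 (0.01).

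Same-numbered samples did not deviate together (18 correlations of −0.16 to 0.118), so no shared effect of the replicate number was seen. With 3 replicates in a group, this cannot show whether same-numbered wells were handled together. A fit with the replicate number as a block gave 6 higher and 0 lower for NTX-301 against DAC in MOLM-13, and the other counts stayed within 1.5 times. Depth is unknown, so no counting error can be given.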

Other observations

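Of the 172 ZNF genes listed for both lines but below the level, 28 rose and 13 fell with DAC and 43 rose and 17 fell with NTX-301 in HL-60, which is 16.3% and 7.56%, and 25% and 9.88%. Of all genes tested there, 11.6% rose and 12.6% fell with DAC and 18.3% and 19.2% with NTX-301. In MOLM-13 the counts were 27 and 7 with DAC (15.7% and 4.07%, against 15.4% and 21.2% of all genes tested) and 49 and 11 with NTX-301 (28.5% and 6.4%, against 20.3% and 24.8%).

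These splits depended on the scaling, tried for these genes after seeing the data. Centring gave 31 and 13 and 34 and 29 in HL-60, then 20 and 16 and 37 and 17 in MOLM-13. Quantile normalization gave 25 and 16 and 32 and 27, then 12 and 12 and 21 and 19. Changes of genes at a mean of 0 to 3 are compressed in these values. Genes at 8 to 10 had a median range of 0.23 in HL-60 and 0.29 in MOLM-13, against 0.18 and 0.23 at 10 to 15. The difference from the well-expressed genes was not tested.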
